A study of Mus musculus with 6 samples.

Results

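The genes examined were 10 members of the antioxidant programme linked to the transcription factor NRF2 (*Nfe2l2*, *Keap1*, *Gclc*, *Gclm*, *Gsr*, *Prdx1*, *Srxn1*, *Txnrd1*, *Hmox1* and *Nqo1*). They were picked by name, the coordinates given are those of the RefSeq gene, and each was read at the RefSeq transcript with the highest total count. All 10 were found among the 24562 gene symbols of the count table, and all 10 passed the filter on low counts, which left 11470 genes. The RNA came from unstimulated (naive) bone marrow-derived macrophages (BMDMs) of mice, grown in medium conditioned by L929 cells, a fibroblast line that secretes M-CSF. AclyM-KO mice (genotype label KO) carried *loxP*-flanked *Acly* alleles on a C57Bl/6J background together with Cre recombinase driven by *Lyz2* (LysMcre), which acts throughout the myeloid lineage. Control mice (genotype label WT) carried the same *loxP*-flanked alleles without Cre, so that Cre itself was present only in the AclyM-KO group. Each group had 3 libraries. The study describes the replicates of these expression data as technical, from marrow pooled from 3 mice, so n = 3 counts libraries and p-values measure the spread between libraries, not between animals. The donors were adult, and the series describes them as female, while the study's methods name both sexes for its in vitro work.

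NRF2, the product of *Nfe2l2*, is held at low levels by KEAP1, an adaptor that hands it to a CUL3 ubiquitin ligase for degradation. When electrophiles or oxidants modify KEAP1, NRF2 accumulates, pairs with small MAF proteins and binds antioxidant response elements in its target genes. Because this control acts on the protein, the level of *Nfe2l2* mRNA does not measure NRF2 activity. Its best-known targets make and recycle glutathione (*Gclc*, *Gclm*, *Gsr*), run the thioredoxin and peroxiredoxin system (*Prdx1*, *Srxn1*, *Txnrd1*), degrade heme (*Hmox1*) and reduce quinones (*Nqo1*), and in macrophages they protect the cell against its own oxidants.

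The question put to the promoters was whether they hold the core letters of the antioxidant response element, TGACNNNGC, on either strand. RefSeq promoter windows (GRCm38, the assembly also called mm10) of 300 bases, with 250 bases before and 50 after an annotated start, were available for 7 of the 10 genes. The motif was found in windows of 5 of these 7 genes (*Nfe2l2*, *Srxn1*, *Gclm*, *Prdx1* and *Txnrd1*) and in none of the windows of *Nqo1* and *Keap1*. It was held by 12.4% of all 32851 RefSeq windows and, counted per gene, by 14.0% of all 27025 genes with a window. The related motif TGAGNNNGC was searched as well. It was held by 17.6% of all windows and by 19.8% of all genes with a window, and among the members by *Srxn1* and *Prdx1* only. The 2 motifs cannot match the same letters on the same strand.

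The bases before the annotated start of each window (250 except in *Gclm*) are shown for the members with a window whose RNA rose (*Prdx1*, *Srxn1*, *Gclm*, *Txnrd1* and *Nqo1*) and for *Nfe2l2*, whose RNA did not pass the test. They are written 5′ to 3′ on the strand of the gene, and capitals mark matches to either motif. A match to the opposite strand appears as its reverse complement. The regions are chr4:116685349-116685598 (plus strand) for *Prdx1*, chr2:152105274-152105523 (plus) for *Srxn1*, chr3:122245307-122245486 (plus) for *Gclm*, chr10:82858956-82859205 (plus) for the start of *Txnrd1* with a match among its 3 windows, chr8:107403206-107403455 (minus) for *Nqo1* and chr2:75704664-75704913 (minus) for *Nfe2l2*.
Prdx1: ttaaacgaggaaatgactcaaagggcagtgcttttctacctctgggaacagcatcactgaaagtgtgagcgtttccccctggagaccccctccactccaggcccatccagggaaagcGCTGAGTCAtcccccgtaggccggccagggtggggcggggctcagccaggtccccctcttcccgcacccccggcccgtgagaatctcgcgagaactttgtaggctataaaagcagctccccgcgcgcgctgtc
Srxn1: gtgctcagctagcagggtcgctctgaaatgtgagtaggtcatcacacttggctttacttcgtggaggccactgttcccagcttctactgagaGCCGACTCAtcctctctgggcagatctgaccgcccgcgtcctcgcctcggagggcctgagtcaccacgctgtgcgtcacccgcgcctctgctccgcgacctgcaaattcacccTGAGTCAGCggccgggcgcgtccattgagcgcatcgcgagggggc
Gclm: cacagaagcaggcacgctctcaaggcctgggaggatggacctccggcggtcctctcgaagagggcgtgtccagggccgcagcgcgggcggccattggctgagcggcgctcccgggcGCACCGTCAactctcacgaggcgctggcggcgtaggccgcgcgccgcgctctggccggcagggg
Txnrd1: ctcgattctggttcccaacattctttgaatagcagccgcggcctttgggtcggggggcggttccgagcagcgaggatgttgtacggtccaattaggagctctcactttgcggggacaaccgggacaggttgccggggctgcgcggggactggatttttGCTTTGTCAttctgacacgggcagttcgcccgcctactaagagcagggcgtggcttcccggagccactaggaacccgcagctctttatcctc
Nqo1: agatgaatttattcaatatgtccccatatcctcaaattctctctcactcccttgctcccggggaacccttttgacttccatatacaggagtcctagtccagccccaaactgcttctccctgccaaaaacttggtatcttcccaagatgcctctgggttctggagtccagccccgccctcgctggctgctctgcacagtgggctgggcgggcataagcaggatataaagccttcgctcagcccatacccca
Nfe2l2: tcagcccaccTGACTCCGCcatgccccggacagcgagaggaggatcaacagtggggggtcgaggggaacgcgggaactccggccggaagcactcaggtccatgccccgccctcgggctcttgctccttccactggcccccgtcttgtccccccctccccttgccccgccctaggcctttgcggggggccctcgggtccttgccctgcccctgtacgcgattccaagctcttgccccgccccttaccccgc

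In *Prdx1* the TGACNNNGC match TGACTCAGC lay on the opposite strand, from position -133 to -125 relative to the start. *Srxn1* had matches to TGAGNNNGC on both strands, TGAGTCAGC at -45 to -37 on the strand of the gene and TGAGTCGGC at -158 to -150 on the other. Its TGACNNNGC match, TGACCTAGC, lay behind the start, at 29 to 37, outside the printed bases. In *Gclm*, where the RefSeq gene begins 70 bases before the start site used for the window, only the 180 bases before the gene are printed. Its match, counted from the start site used for the window, was TGACGGTGC at -134 to -126, and that of *Txnrd1*, whose window lies inside the gene at an internal start, was TGACAAAGC at -92 to -84, both on the opposite strand. *Nfe2l2* itself held TGACTCCGC at -240 to -232. A TGAGNNNGC match of *Prdx1* lay at 16 to 24, also outside the printed bases. These are matches of letters, and binding was not measured.

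Summed over 35745 transcripts, the control libraries held 19327459 to 23582992 counts and the AclyM-KO libraries 19797218 to 44507233. AclyM-KO replicate 2 was the deepest, with 2.18 times the mean total of the other 5. *Acly*, the targeted gene, fell from 229.7 ± 8.18 to 96.8 ± 3.06 CPM (counts relative to the scaled library total, mean ± SD, n = 3 each), with no overlap between the groups. The summed level of 7 macrophage markers was 8624 to 8823 CPM in control and 7050 to 8315 CPM in AclyM-KO libraries. Of the 7, 2 fell (*Csf1r* and *Mertk*), against 5.65% of all genes tested. The summed level of 8 granulocyte markers was at most 31.1 CPM, and those of the T and NK cell, B cell, erythroid, mast cell and stromal lists were at most 0.718 CPM in every library. Dendritic cell markers, mostly *Itgax*, summed to 14.6 to 20.1 CPM in control and 20.6 to 30.3 CPM in AclyM-KO libraries. Osteoclast markers summed to 7.25 to 8.21 CPM in control and to 14.1 to 17.9 CPM in AclyM-KO libraries, most of it *Ctsk*, which alone of the list rose, while *Acp5* averaged 2.41 CPM in control and 1.45 CPM in AclyM-KO libraries (log2 fold change -0.66, edgeR adjusted p = 0.232), and *Calcr*, a defining gene of that cell, had 0 counts in every library. All 6 cell cycle genes on a list with *Mki67* and *Top2a* rose, against 6.70% of all genes tested. Their sum was 346.0 to 410.0 CPM in control and 502.9 to 724.2 CPM in AclyM-KO libraries, with replicate 2 at the top. Defining genes of other cells (*Cd3e*, *Cd3g*, *Pax5*, *Fcer1a*, *Ms4a2* and *Col3a1*) had 0 counts in every library. The part of these markers in the results given here was not tested. In such bulk RNA, a shift in the share of a cell type and a change of RNA per cell cannot be told apart.

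Of the 10 genes, 6 rose in AclyM-KO macrophages, 0 fell and 4 did not pass the test. The 6 were *Nqo1*, *Gclc*, *Prdx1*, *Srxn1*, *Txnrd1* and *Gclm*, with increases of 1.37- to 2.74-fold, while *Nfe2l2* and *Keap1*, the factor and its inhibitor, overlapped between the groups. Genes were called where the Benjamini-Hochberg adjusted p from the quasi-likelihood test of edgeR, taken over all 11470 genes, was 0.05 or less. By the same rule 12.3% of all genes tested changed, with 6.70% of all genes higher and 5.65% lower. In 8 of the 10 genes every AclyM-KO library was above every control library, which held for 16.3% of all genes tested, and 0 of the 10 were separate in the other direction (16.6% of all genes, or 32.8% in either direction). The median log2 fold change was 0.48 over the 10 genes and 0.00026 over all genes.

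**Figure D1:**
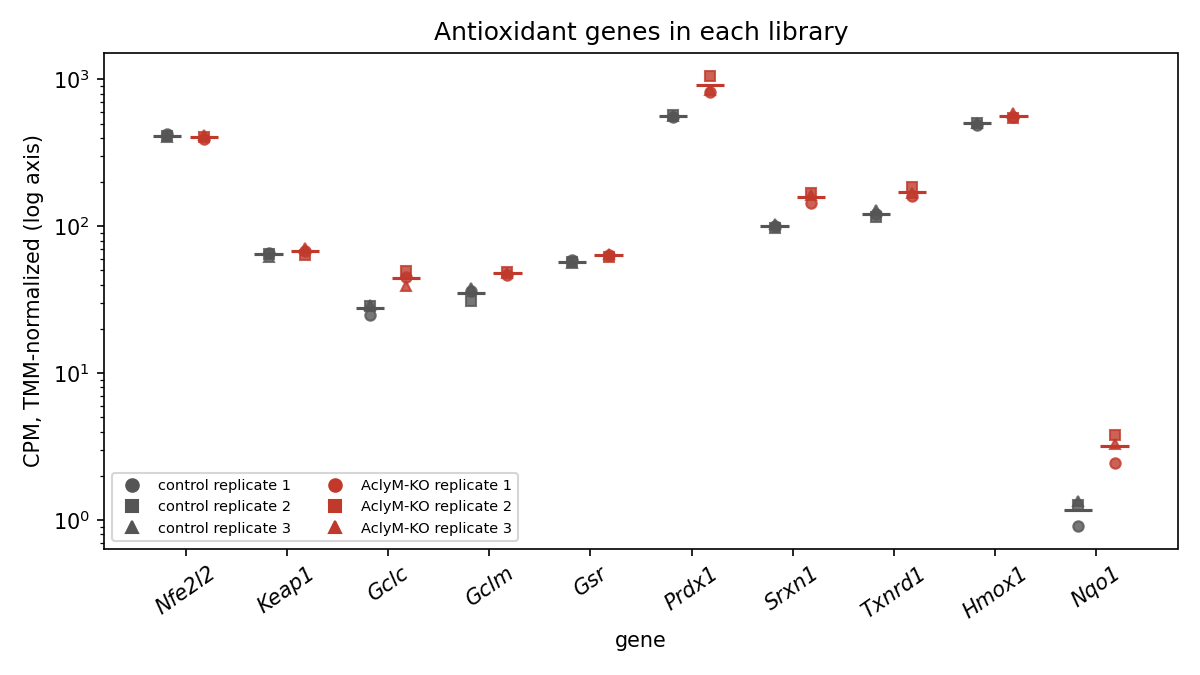
Level of each gene (CPM, log axis) in the 3 control libraries (grey) and the 3 AclyM-KO libraries (red), with symbols for the replicate numbers and a bar for the mean of each group. The groups are separate in every gene except *Nfe2l2* and *Keap1* (16.3% of all genes tested were separate with AclyM-KO higher). The levels span from 0.909 CPM (*Nqo1* in control replicate 1) to 1062 CPM (*Prdx1* in AclyM-KO replicate 2).

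The regulators were examined before the enzymes. *Nfe2l2* (chromosome 2 of mm10, 75675513 to 75704663) was at 423, 409 and 405 CPM in control and at 395, 403 and 421 CPM in AclyM-KO replicates 1, 2 and 3. The ranges of the groups lay on top of each other. Its log2 fold change was -0.02 (standard error, SE, 0.061, edgeR adjusted p = 0.860), with a 95% interval from -0.16 to 0.11, and with scaling by total counts alone the sign turned to 0.01. A second, non-coding transcript of the gene had between 58 and 129 counts per library and a log2 fold change of -0.20 (SE 0.164, edgeR on all transcripts, adjusted p = 0.462).

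*Keap1* (chromosome 9, 21229730 to 21239332), which encodes the inhibitor of NRF2, was at 66.0, 65.1 and 61.9 CPM in control and at 68.0, 63.2 and 71.5 CPM in AclyM-KO libraries. The groups overlapped here too. The log2 fold change was 0.07 (SE 0.076, edgeR adjusted p = 0.620) with a 95% interval from -0.10 to 0.23. The 4 annotated transcripts of *Keap1* had nearly equal counts and gave log2 fold changes between 0.06 and 0.07. Its exons overlap those of *Gm16754*, which runs the other way, and counting used default settings whose strand option is not spelled out in the sources used here.

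Among the glutathione genes, both subunits of glutamate-cysteine ligase rose. This enzyme carries out the rate-limiting step of glutathione synthesis, with GCLC as its catalytic and GCLM as its modifier subunit. *Gclc* (chromosome 9, 77754535 to 77794489) had levels of 24.8, 28.8 and 29.1 CPM in control and of 45.4, 49.3 and 39.3 CPM in AclyM-KO libraries. Every AclyM-KO library was well above the highest control. The increase was 1.63-fold, a log2 fold change of 0.70 (SE 0.107, 95% interval 0.47 to 0.93, edgeR adjusted p = 0.00191). *Gclm* (chromosome 3, 122245487 to 122267215) was at 36.4, 30.8 and 37.7 CPM in control and at 46.5, 49.1 and 48.1 CPM in AclyM-KO libraries. Here the control libraries were the more spread, with replicate 2 lowest. The increase was 1.37-fold (log2 fold change 0.46, SE 0.093, edgeR adjusted p = 0.00855), and the adjusted p was 0.0552 without control replicate 2. Exons of *Gclm* overlap those of *Gm6061* on the same and *Gm17494* on the opposite strand, for which no counts were used here.

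The ratio of *Gclc* to *Gclm* counts within a library was 0.683, 0.934 and 0.773 in control and 0.978, 1.005 and 0.819 in AclyM-KO libraries. The ranges of the groups overlapped (exact permutation test, two-sided p = 0.20). *Gsr* (chromosome 8, 33653238 to 33698162) encodes glutathione reductase, which returns oxidized glutathione to its reduced form with NADPH. Its levels were 58.9, 57.1 and 56.7 CPM in control and 63.5, 62.2 and 64.3 CPM in AclyM-KO libraries. The groups did not overlap, but the gap was small, with a log2 fold change of 0.14 (SE 0.070, 95% interval -0.02 to 0.29, edgeR adjusted p = 0.236), and the change did not pass the test under any of 15 other ways of processing, in which the adjusted p ran from 0.115 to 0.475.

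The 3 members that belong to the thioredoxin and peroxiredoxin system all rose, against 6.70% of all genes tested. Among 19 other tested genes of thioredoxins, peroxiredoxins and enzymes of superoxide and peroxide, 2 rose and 1 fell. *Prdx1* (chromosome 4, 116685599 to 116700000) encodes peroxiredoxin 1, which reduces hydrogen peroxide. It was at 553, 576 and 562 CPM in control and at 821, 1062 and 852 CPM in AclyM-KO libraries. The AclyM-KO libraries were all higher, and replicate 2 stood apart above the other 2. The increase was 1.62-fold (log2 fold change 0.69, SE 0.091, 95% interval 0.49 to 0.89, edgeR adjusted p = 7.93e-04).

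*Srxn1* (chromosome 2, 152105524 to 152111376) encodes sulfiredoxin, which restores peroxiredoxins that peroxide has over-oxidized. Its levels were 99.9, 97.2 and 103.7 CPM in control and 145, 167 and 162 CPM in AclyM-KO libraries. The control libraries were close together and far below all AclyM-KO libraries. The increase was 1.58-fold (log2 fold change 0.66, SE 0.074, 95% interval 0.50 to 0.82) and had the smallest adjusted p of the 10 genes, 2.56e-04 in edgeR. *Txnrd1* (chromosome 10, 82833951 to 82897724) encodes the cytosolic thioredoxin reductase, a selenoprotein that keeps thioredoxin reduced. It went from 121, 115 and 128 CPM in control to 161, 186 and 168 CPM in AclyM-KO libraries. The increase of 1.42-fold (log2 fold change 0.50, SE 0.076, edgeR adjusted p = 0.00189) appeared in all 4 of its annotated transcripts, at 0.50 or 0.51, but their counts were nearly equal and are not independent.

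The other 2 enzymes lay at opposite ends of the scale of levels per transcript length in control libraries. *Hmox1* (chromosome 8, 75093618 to 75100593) encodes heme oxygenase 1, which opens heme to biliverdin, carbon monoxide and iron. It was at 492, 508 and 507 CPM in control and at 558, 546 and 594 CPM in AclyM-KO libraries. The groups did not overlap, yet the difference was small. The log2 fold change was 0.17 (SE 0.063, 95% interval 0.03 to 0.31) and missed the limit with an adjusted p of 0.0989 in edgeR. The adjusted p was 0.00748 with limma-voom and sample weights and 0.00664 without AclyM-KO replicate 2.

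*Nqo1* (chromosome 8, 107388225 to 107403205) encodes a quinone reductase and was barely expressed, with 10, 17 and 15 counts in the control libraries against 28, 100 and 38. In CPM these levels were 0.909, 1.27 and 1.35 against 2.44, 3.78 and 3.32. All AclyM-KO libraries were above all control libraries. The fold change of 2.74 was the largest of the 10 genes (log2 fold change 1.45, edgeR adjusted p = 0.00627), and its SE of 0.279 and 95% interval from 0.84 to 2.06 were the widest.

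**Figure D2:**
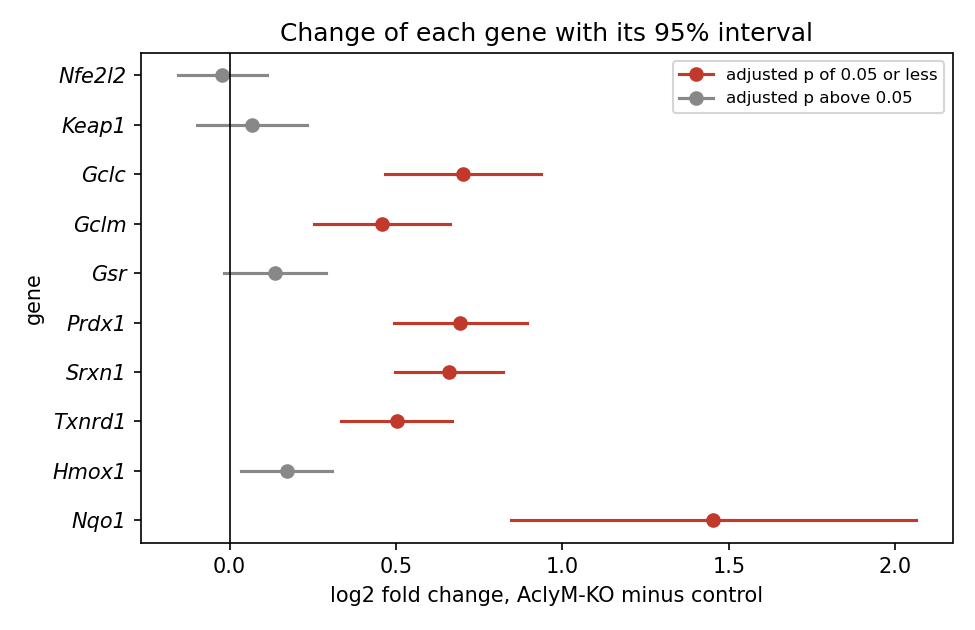
Log2 fold change of each gene (AclyM-KO minus control, points) with its 95% interval from edgeR (lines), in red where the adjusted p was 0.05 or less. *Nqo1* is farthest to the right at 1.45, 5 genes lie between 0.46 and 0.70, and *Nfe2l2* (-0.02), *Keap1* (0.07), *Gsr* (0.14) and *Hmox1* (0.17) lie near 0.

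Counts were also divided by those of *Nfe2l2* in the same library, since such ratios do not depend on how libraries are scaled. *Prdx1* had 1.31, 1.41 and 1.39 counts per *Nfe2l2* count in control and 2.08, 2.63 and 2.02 in AclyM-KO libraries. For *Srxn1* the ratio was 0.236, 0.238 and 0.256 in control and 0.367, 0.415 and 0.386 in AclyM-KO libraries. In both genes the lowest AclyM-KO library was far above the highest control library. The mean ratio to *Nfe2l2* was higher in AclyM-KO libraries by a factor of 2.73 for *Nqo1*, 1.65 for *Gclc*, 1.64 for *Prdx1*, 1.60 for *Srxn1*, 1.44 for *Txnrd1*, 1.39 for *Gclm*, 1.14 for *Hmox1* and 1.12 for *Gsr*. In all 8 genes every AclyM-KO library had a higher ratio than every control library, as did 16.9% of the 11469 genes tested other than *Nfe2l2*, and each had p = 0.10 in a two-sided exact permutation test, the smallest that 3 libraries against 3 allow. The ratio of *Nfe2l2* to *Keap1* was 6.29 to 6.55 in control libraries and 5.81 to 6.38 in AclyM-KO libraries and overlapped between the groups.

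**Figure D3:**
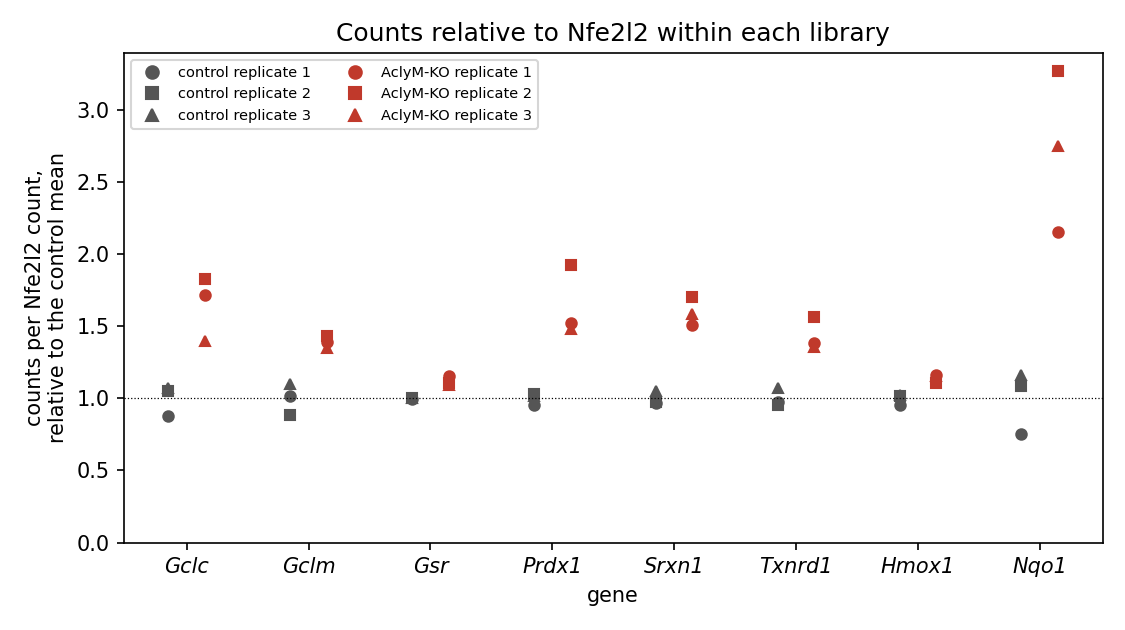
Counts of 8 genes per count of *Nfe2l2* in the same library, relative to the mean of the control libraries (linear axis from 0, dotted line at 1), for 3 control (grey) and 3 AclyM-KO libraries (red). All red points lie above all grey points of the same gene (16.9% of all genes tested were separate in this way), and the mean ratio of the groups is highest for *Nqo1* (2.73) and lowest for *Gsr* (1.12).

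Levels of different genes were compared only per transcript length, as CPM per kilobase (the scale of RPKM), with lengths of the matching GENCODE transcripts. In control libraries *Hmox1* was highest at 320.2 ± 5.86, followed by *Prdx1* at 245.8 ± 5.10 and *Nfe2l2* at 166.7 ± 3.75 (SD, n = 3 each). *Srxn1* (35.7 ± 1.15) and *Txnrd1* (34.4 ± 1.90) came next and overlapped between libraries. *Gsr* (21.5 ± 0.451), *Keap1* (20.3 ± 0.684), *Gclc* (8.06 ± 0.699), *Gclm* (6.26 ± 0.657) and *Nqo1* (0.758 ± 0.152) followed, each above the next in all libraries. In AclyM-KO libraries *Prdx1* was at 397.3 ± 57.1 and *Hmox1* at 360.6 ± 15.9 (SD, n = 3 each), and their ranges overlapped. The other 8 genes were in the same order as in control, again with overlap between *Srxn1* and *Txnrd1*. These values rest on the annotated length, which was 1569 bp for *Hmox1* and 2294 bp for *Prdx1*.

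AclyM-KO replicate 2 had the highest level of its group in all 6 genes that rose, and replicate 3 in the 4 genes that did not pass the test. Replicate 2 was also the deepest library and had the highest sum of cell cycle genes. Without it, the log2 fold changes of the 6 genes were 1.28 for *Nqo1*, 0.62 for *Gclc*, 0.44 for *Gclm*, 0.57 for *Prdx1*, 0.62 for *Srxn1* and 0.44 for *Txnrd1*, with a largest adjusted p of 0.00991 in edgeR. Together with *Hmox1*, 7 of the 10 genes then rose, while the share of all genes that rose went from 6.70% to 9.56%. With this library thinned to 11753905 counts, 6 of the 10 rose, as with all its counts.

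Further genes around NRF2 were taken from 6 lists with 104 genes, of which 87 were tested, 16 rose and 6 fell. Their median log2 fold change was 0.07, and the share of each list that rose or fell can be read against the 12.3% of all genes tested. The number that passed the test was 9, 8 and 9 without control replicate 1, 2 or 3, 14 without AclyM-KO replicate 3 and 33 without AclyM-KO replicate 2. Among 10 regulators, 3 rose and 0 fell. They were *Mafg*, a small MAF partner of NRF2 (log2 fold change 0.32, adjusted p = 0.0467), *Nfe2l1*, a related factor (0.25, adjusted p = 0.0178), and *Sqstm1*, whose product p62 draws KEAP1 into autophagy (0.24, adjusted p = 0.0228, all in edgeR). All 3 lost their call without control replicate 1, 2 or 3 or without AclyM-KO replicate 3, and *Mafg* also with DESeq2 (adjusted p = 0.0605). *Bach1*, which competes with NRF2 for its sites and represses *Hmox1*, averaged 192.1 ± 5.91 CPM in control libraries against 173.5 ± 10.1 CPM (SD, n = 3 each; log2 fold change -0.15, edgeR adjusted p = 0.185).

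Of 23 genes of glutathione synthesis, breakdown and use, 19 were tested, 2 rose and 0 fell, against 12.3% of all genes tested that changed. These 2 encode both chains of the cystine importer that supplies cysteine for glutathione. *Slc7a11*, the transport subunit, was weakly expressed at 3.001, 2.91 and 3.25 CPM in control and 5.48, 6.31 and 5.06 CPM in AclyM-KO libraries. All AclyM-KO libraries were higher (log2 fold change 0.90, SE 0.185, edgeR adjusted p = 0.00891), and the adjusted p was 0.0522 without control replicate 2. *Slc3a2*, its heavy chain, was far more abundant, at 162.2 CPM per kilobase in control libraries against 0.331 for *Slc7a11*. What part of it belongs to this importer was not measured. *Slc3a2* rose by 0.35 on the log2 scale (edgeR adjusted p = 0.00716), but the adjusted p was 0.0524 without control replicate 1 and 0.0617 without control replicate 3. *Gss*, the second enzyme of glutathione synthesis, had a log2 fold change of 0.06 (95% interval -0.20 to 0.33, adjusted p = 0.795), and *Gpx4*, which uses glutathione to reduce lipid peroxides, one of 0.20 (95% interval -0.02 to 0.42, adjusted p = 0.226, or 0.0391 without AclyM-KO replicate 1). *Ggt1* and *Gpx8* had 0 counts in every library, which allows up to 3 counts, between 0.113 and 0.273 CPM depending on depth.

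Of 23 glutathione S-transferases, 13 were tested, 1 rose and 2 fell. *Gsta3* had 3, 4 and 7 counts in control libraries and rose to 18, 56 and 25 (log2 fold change 2.30, SE 0.383, edgeR adjusted p = 0.00304). *Gstt2* fell by 0.93 and *Gsto1* by 0.26 on the log2 scale, with edgeR adjusted p of 0.0103 and 0.0423. *Gstt2* lost its call without control replicate 1 or 2 (0.0594 and 0.0584). *Gsto1* lost it in 7 of 15 alternatives, among them each control replicate and AclyM-KO replicate 1 or 3 left out (0.0557 to 0.164). Among 21 genes of thioredoxins, other peroxiredoxins and enzymes of superoxide and peroxide, 19 were tested, 2 rose and 1 fell, against 6.70% and 5.65% of all genes tested. Catalase (*Cat*), which splits hydrogen peroxide, went from 426, 383 and 404 CPM in control to 613, 469 and 593 CPM in AclyM-KO libraries. The AclyM-KO libraries were all higher, here with replicate 2 lowest (log2 fold change 0.46, edgeR adjusted p = 0.00891), but the adjusted p was 0.0583 without control replicate 2 and 0.0531 without control replicate 3. *Msra*, a methionine sulfoxide reductase, rose by 0.62, while *Prdx5*, a peroxiredoxin found in mitochondria and peroxisomes, fell by 0.49. *Txn1*, which encodes the thioredoxin that TXNRD1 reduces, had a log2 fold change of 0.24 and did not pass the test (95% interval 0.02 to 0.45, adjusted p = 0.146, or 0.0486 without AclyM-KO replicate 1).

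All 12 genes of heme and iron handling were tested, and 2 rose and 2 fell, against 6.70% and 5.65% of all genes tested. Their median log2 fold change was 0.06. *Tfrc*, the transferrin receptor through which cells take up iron, was at 527, 506 and 499 CPM in control and 932, 1029.6 and 832 CPM in AclyM-KO libraries, an increase of 1.82-fold without overlap (log2 fold change 0.87, SE 0.080, edgeR adjusted p = 5.39e-05). *Slc40a1*, which encodes the iron exporter ferroportin, was at 988, 837 and 941 CPM in control and 639, 440 and 556 CPM in AclyM-KO libraries, with every AclyM-KO library below every control library. It fell by 0.76 on the log2 scale (SE 0.116, edgeR adjusted p = 0.00191). *Spic*, a heme-induced factor of iron-recycling macrophages, had 62, 65 and 54 counts in control and 41, 49 and 29 in AclyM-KO libraries. It fell by 1.02 on the log2 scale (SE 0.245, edgeR adjusted p = 0.0196). *Ftl1*, a ferritin subunit, rose by 0.25 (adjusted p = 0.0463). *Spic* lost its call without any 1 control replicate (0.0921, 0.0623 and 0.0636) and without AclyM-KO replicate 3 (0.0512). *Ftl1* lost it without any 1 control replicate (0.152, 0.156 and 0.188) and without AclyM-KO replicate 1 (0.0994) or 3 (0.138). Ferritin and thioredoxin genes have pseudogene copies, and reads that fit several places were not kept, so their levels are uncertain.

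Of 15 other NRF2 targets, 14 were tested, 6 rose and 1 fell, against 6.70% and 5.65% of all genes tested. The largest increase was in *Me1*, the cytosolic malic enzyme that makes NADPH, with 2.40 ± 0.320 CPM in control libraries against 6.25 ± 1.45 CPM (SD, n = 3 each, log2 fold change 1.40, edgeR adjusted p = 0.00252). *Me1* was weakly expressed, with 25, 37 and 24 counts in the control libraries. *Tkt*, a transketolase of the pentose phosphate pathway, rose by 0.45, and *Ptgr1*, a prostaglandin and alkenal reductase, rose by 0.42. *Osgin1* fell by 0.57 on the log2 scale (edgeR adjusted p = 0.0366). Without control replicate 1, 2 or 3 the adjusted p was 0.0890, 0.0689 and 0.0693 for *Ptgr1* and 0.106, 0.146 and 0.0942 for *Osgin1*, which also missed the limit without AclyM-KO replicate 3 (0.0666). The motif TGACNNNGC was found in promoter windows of 5 of 15 genes with a window that rose across the 6 lists, of 0 of 4 that fell and of 14 of 58 that did not pass the test, while 14.0% of all genes with a window held it.

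**Figure D4:**
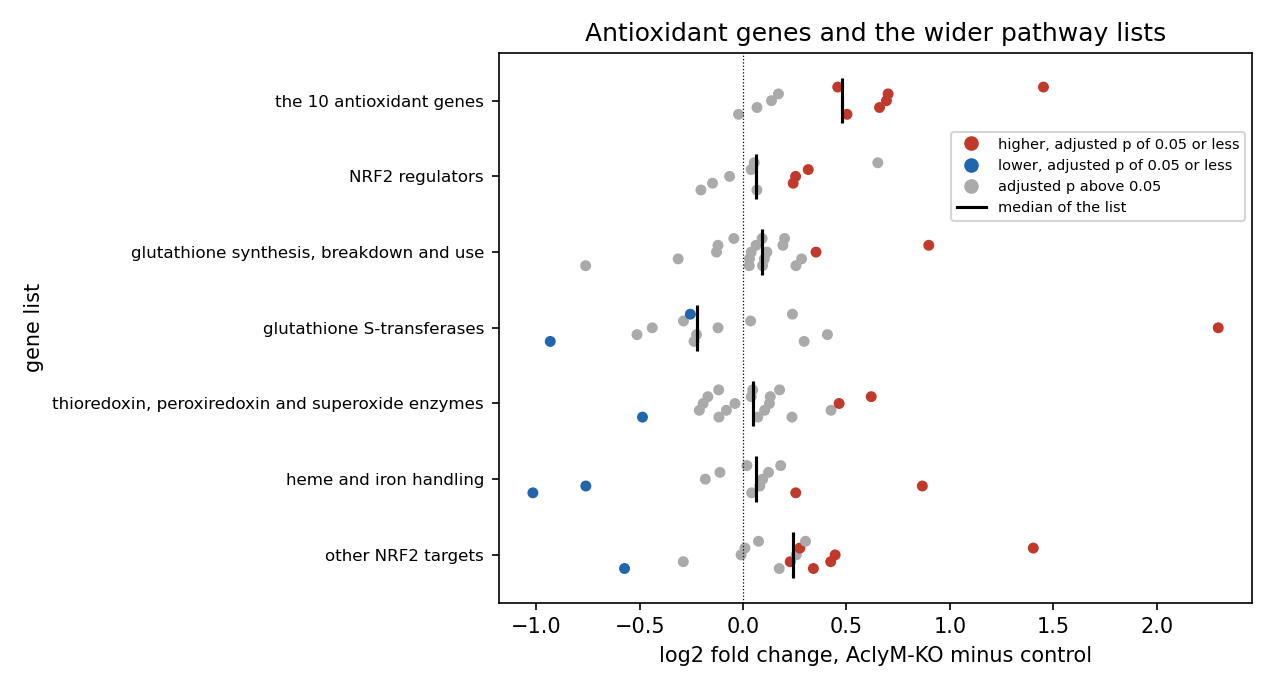
Log2 fold change (AclyM-KO minus control) of each tested gene in the group of 10 antioxidant genes and in 6 further lists, with red for genes that rose, blue for genes that fell, grey for the rest and a black bar at the median of each list. The median was 0.48 for the 10 genes and lay between -0.23 and 0.24 in the other lists.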

How the data were processed

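RNA of 3 control and 3 AclyM-KO BMDM samples, prepared with the KAPA mRNA HyperPrep kit as strand-specific libraries, was sequenced on an Illumina instrument. Per the labels' processing notes, CASAVA 1.8.2 and STAR 2.5.2b were used with mm10. The authors filtered alignments on mapping quality with SAMtools, which removes reads that fit several places, and deposited raw counts per RefSeq transcript from HOMER2, without normalization or pooling. Counting used HOMER2's default settings, and the RefSeq release and what that default means for strand are not given in the sources used here. The table had 12 columns of counts, of which 6 match these samples and 6 were not used here.

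Symbols came from RefSeq (35440 transcripts) and GENCODE M21 (188), and 117 transcripts kept their accession. The transcript with the highest total represented each gene. The comparison used edgeR 4.0.16 under R 4.3.3 (filterByExpr, TMM, quasi-likelihood test with genotype only, Benjamini-Hochberg adjustment). CPM use TMM-scaled totals, and intervals are 95%. Alternatives were DESeq2 1.42.0, limma 3.58.1, other scalings and filters, a replicate block, all transcripts, a thinned library, a limit of 0.01 and each library left out. Where a fit leaves 2 libraries in a group, the spread is shared across groups. The test was checked on simulated data. Genes named were the 10 members, *Acly*, 6 fixed pathway genes and up to 3 genes per list and direction with the largest change. *Ggt1* and *Gpx8* and, in the marker lists, *Csf1r*, *Mertk*, *Itgax*, *Ctsk*, *Acp5*, *Calcr* and the genes at 0 counts were named after their values were seen. The members and lists were chosen with earlier results of these data known.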

Additional observations from a re-analysis of the deposited data

How the results depend on the processing

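The count of 6 antioxidant genes that rose was 6 or 7 under every alternative except 1. It was 7 with limma-voom and sample weights and without AclyM-KO replicate 2, where *Hmox1* joined, and 5 without control replicate 2, where *Gclm* missed the limit. With each library left out in turn it was therefore 5 to 7, and 0 genes fell in any setting. The log2 fold change of *Nfe2l2* turned from -0.02 to 0.0129 with total counts only. The 22 genes of the wider lists became 10 at a limit of 0.01 and 8 to 33 with a library left out, and the 1416 of all genes became 557, and 598 to 2136 with a library left out (598, 658 and 628 without control replicate 1, 2 or 3, 2136 without AclyM-KO replicate 2), and 2187 with limma-voom. The cause of these shifts was not tested. No scaling moved the median log2 fold change of all genes by more than 0.04. With the replicate block the counts were 6, 20 and 1583. Same-numbered libraries had correlations of 0.09, 0.11 and -0.05 of their deviations from the group means. For libraries with different numbers these ran from -0.13 to 0.07. Whether same-numbered libraries share a batch cannot be told from so few values. *Mafg* was the sole named gene whose call changed under the block (edgeR adjusted p = 0.0560). Counts were low for *Nqo1*, *Gsta3*, *Me1*, *Spic*, *Gstt2* and *Slc7a11*, whose fold changes have wide errors (SE from 0.185 to 0.383).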
